A study of Mus musculus with 14 samples.

Results

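Leukemia cells that carried an induced control hairpin were compared between 4 days (D4) and 2 days (D2) of doxycycline, across all genes, in 2 libraries for each day out of 14 in the series. KL974 is a single mouse acute myeloid leukemia line whose genotype label reads Trp53R172H;shMll3;shNf1, that is, a mutant Trp53 together with hairpins against Mll3 (Kmt2c) and Nf1, and every library shares it. The cells grew in RPMI medium with serum and the cytokines IL3, IL6 and SCF. A lentiviral vector gave them the control hairpin shRen713, linked to blue fluorescent protein (BFP) and switched on by doxycycline. The BFP positive cells of both days were isolated by flow cytometry. The BFP negative cells at D4 and at D2, 2 libraries each, came from the same kind of culture with doxycycline and a sort but were not induced, and 2 untreated libraries of day 0 have no sort in their titles. No label says that replicates were separate cultures, and the p-values therefore cover only the library-to-library spread, which may be technical. Both days differ in time in culture and in time on the drug together, and these cannot be told apart.

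Glycolysis turns glucose into pyruvate and lactate, and the monocarboxylate transporter encoded by Slc16a3 carries lactate out of the cell. Many of its genes are targets of the hypoxia-inducible factors, which are stabilised at low oxygen and bind the DNA core ACGTG. Sterol synthesis runs from acetyl-CoA through mevalonate to cholesterol, and its genes are switched on together by SREBP2 when sterols in the cell are low. ATF4 is the transcription factor that raises amino acid synthesis and transport genes when amino acids run short.

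In BFP positive cells, D4 libraries were lower than D2 libraries in genes of glycolysis, the hypoxia response, sterol and fatty acid synthesis and amino acid stress, and in many genes of chromosome 7. They were higher in Vim, Neat1, Hap1, Cela1 and Cpne5. Of 10791 genes tested, 1286 were called (11.9% of those tested, Benjamini-Hochberg adjusted p under 0.05 by the quasi-likelihood test of edgeR), with 634 higher (5.88%) and 652 lower (6.04%) at D4. At least 2-fold changes were seen in 199 of them (1.84% of genes tested), 130 higher and 69 lower. The libraries of the days did not overlap in 1285 of the called genes, but they also did not overlap in 52.9% of all genes tested (26.6% with both D4 libraries above both D2 libraries and 26.3% with both below). Statements below that the libraries or days did not overlap are to be read against these shares. Counts of list members called are to be read against the 5.88% higher and 6.04% lower over all genes tested. The median log2 fold change over all genes tested was 0.00. The number called was 367 without D2 replicate 1, 1167 without D2 replicate 2, 654 without D4 replicate 1 and 658 without D4 replicate 2.

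The libraries held 3191961 and 2148243 counts at D4 and 3008718 and 1500031 counts at D2. On the second principal component, with 14.9% of the variance, D4 BFP positive libraries scored 5.67 and 5.80, against -18.2 and -30.1 for D2 BFP positive libraries, the lowest of the 14. The share of counts from mitochondrial genes was 2.78% and 2.76% at D4 and 2.75% and 3.09% at D2. Levels are given in CPM (counts-per-million of the tested genes' counts after library scaling), and log2 fold changes are D4 over D2 with their standard error. In sorted bulk cells, fewer cells of a type and less RNA per cell cannot be told apart.

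Cpne5 was the marker gene with the largest change. It encodes a copine, a calcium-dependent protein that binds phospholipids, and lies at chr17:29156550-29237797 on the minus strand (GRCm38). Cpne5 measured 14.1 and 15.9 CPM at D4, against 4.13 and 2.04 CPM at D2, a log2 fold change of 2.10 ± 0.35 (edgeR adjusted p = 1.2e-05). Both D4 libraries were above both D2 libraries and close to the day 0 mean of 13.8 CPM. Dock10, which encodes an activator of the small GTPases CDC42 and RAC1, lies at chr1:80501073-80758527 on the minus strand. Dock10 measured 36.7 and 44.3 CPM at D4 and 60.2 and 68.1 CPM at D2, and fell by 0.66 ± 0.15 on the log2 scale (edgeR adjusted p = 0.00142). Without D4 replicate 1 its call was lost (-0.53, adjusted p = 0.0973). Yap1, a transcriptional co-activator of the Hippo pathway at chr9:7931999-8004596 on the minus strand, did not pass. It measured 17.9 and 15.4 CPM at D4 and 22.7 and 25.2 CPM at D2 (log2 fold change -0.49 ± 0.22, edgeR adjusted p = 0.134). The libraries did not overlap for any of these markers, as for 52.9% of all genes tested, so this adds no support for Yap1.

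Glycolysis genes were lower at D4 almost throughout the pathway. Of 21 members tested, 15 fell, 0 rose and 6 did not pass, with a median log2 fold change of -0.51 against 0.00 over all genes tested. Ldha, which encodes the A chain of lactate dehydrogenase, the enzyme that turns pyruvate into lactate, measured 554 and 531 CPM at D4 and 1192 and 1043 CPM at D2 (-1.05 ± 0.08, edgeR adjusted p = 2.9e-17). Both D4 libraries were near the day 0 mean of 539 CPM, and D2 libraries lay far above it. Aldoa, the muscle-type aldolase that splits fructose bisphosphate, had 349 and 340 CPM at D4 and 703 and 609 CPM at D2 (-0.94 ± 0.09). Pfkl, the liver-type phosphofructokinase at the committing step, had 189 and 180 CPM at D4 and 329 and 298 CPM at D2 (-0.77 ± 0.09). Pgam1, a phosphoglycerate mutase, had 23.8 and 27.5 CPM at D4 against 51.6 and 59.3 CPM at D2 (-1.10 ± 0.17). For all 4 genes the days did not overlap. Slc16a3 had 6.27 and 3.26 CPM at D4 and 18.2 and 17.7 CPM at D2 (-1.83 ± 0.31, edgeR adjusted p = 1.23e-05), which was the largest change of the list. Ldha, Aldoa and Gpi1, which lie on chromosome 7, were called, as were 12 of the 18 tested members on other chromosomes (median -0.45). With any 1 library of the comparison left out, 12 or 13 members were called. Several of these genes have processed pseudogenes in the mouse genome, and no source used here states how reads that fit several places were counted.

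The promoters of 3 of the genes that fell are shown because they hold the hypoxia core in the window from 250 bases before to 50 bases after the start (RefSeq, GRCm38.p6, plus strand, 5′ to 3′). Pgk1, a phosphoglycerate kinase gene, was added after its values were seen. Capitals mark ACGTG or its reverse complement CACGT, and in Ldha these overlap as CACGTG, the E-box, at 2 places. The windows are chr7:46845554-46845853 for Ldha, chrX:106186850-106187149 for Pgk1 and chr11:120948817-120949116 for Slc16a3.
Ldha: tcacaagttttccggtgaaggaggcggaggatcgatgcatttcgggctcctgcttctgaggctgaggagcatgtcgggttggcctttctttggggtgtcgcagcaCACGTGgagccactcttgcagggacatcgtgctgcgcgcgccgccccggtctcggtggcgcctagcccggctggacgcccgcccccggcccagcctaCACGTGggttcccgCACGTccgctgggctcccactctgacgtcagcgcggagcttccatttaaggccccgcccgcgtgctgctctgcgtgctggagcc
Pgk1: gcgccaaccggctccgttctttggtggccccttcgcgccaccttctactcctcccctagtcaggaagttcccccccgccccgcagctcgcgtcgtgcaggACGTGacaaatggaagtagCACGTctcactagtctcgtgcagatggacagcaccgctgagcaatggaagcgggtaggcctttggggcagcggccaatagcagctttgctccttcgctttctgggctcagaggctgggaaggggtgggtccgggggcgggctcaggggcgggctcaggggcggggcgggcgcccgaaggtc
Slc16a3: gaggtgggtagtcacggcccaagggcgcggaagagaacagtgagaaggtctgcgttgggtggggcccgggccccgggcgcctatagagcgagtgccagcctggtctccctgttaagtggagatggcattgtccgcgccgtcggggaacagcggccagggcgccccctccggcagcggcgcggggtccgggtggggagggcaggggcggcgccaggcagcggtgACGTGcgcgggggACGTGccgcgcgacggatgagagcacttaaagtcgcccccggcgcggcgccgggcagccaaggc
Of 15 glycolysis genes called lower, all with a promoter in the table, 10 held the core on either strand (66.7%), as did 14 of 20 tested glycolysis genes with a promoter, whether called or not (70%). Over all tested genes with a promoter it was in 2517 of 8306 (30.3%). The E-box CACGTG alone was in 2 of the 15 (13.3%) and in 12.3% of all. Such a match is a description of letters and not of binding. Pgk1 measured 121 and 134 CPM at D4 and 230.0 and 205 CPM at D2 (-0.79 ± 0.10, edgeR adjusted p = 1.58e-08).

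Some other genes of the hypoxia response were lower as well, and Egln1 was higher. Of 16 members tested, 6 fell, 1 rose and 9 did not pass (median -0.52). Ddit4, an inhibitor of the growth kinase complex mTORC1 that is also induced by ATF4, had 36.3 and 39.6 CPM at D4 and 98.1 and 79.7 CPM at D2 (-1.27 ± 0.14, edgeR adjusted p = 1.13e-09). Vegfa, the growth factor of blood vessels, had 9.40 and 16.3 CPM at D4 against 27.5 and 30.0 CPM at D2 (-1.21 ± 0.23), and lost its call without D4 replicate 1 (-0.81, adjusted p = 0.06). Bnip3, which lies on chromosome 7, encodes a mitochondrial protein of cell death and mitophagy. It had 6 and 2 counts at D4 and 22 and 15 counts at D2 (-2.48 ± 0.51, edgeR adjusted p = 0.000361). None of these 3 overlapped between days. Egln1, which encodes the prolyl hydroxylase that marks hypoxia-inducible factor for breakdown, went the other way. Egln1 had 12.8 and 10.7 CPM at D4 and 5.51 and 2.73 CPM at D2 (1.39 ± 0.34, edgeR adjusted p = 0.00328). Its call was lost without D4 replicate 1 (1.21, adjusted p = 0.0877). Hif1a, added here as the gene of the factor itself, overlapped between the days (-0.10 ± 0.18, edgeR adjusted p = 0.794).

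**Figure D1:**
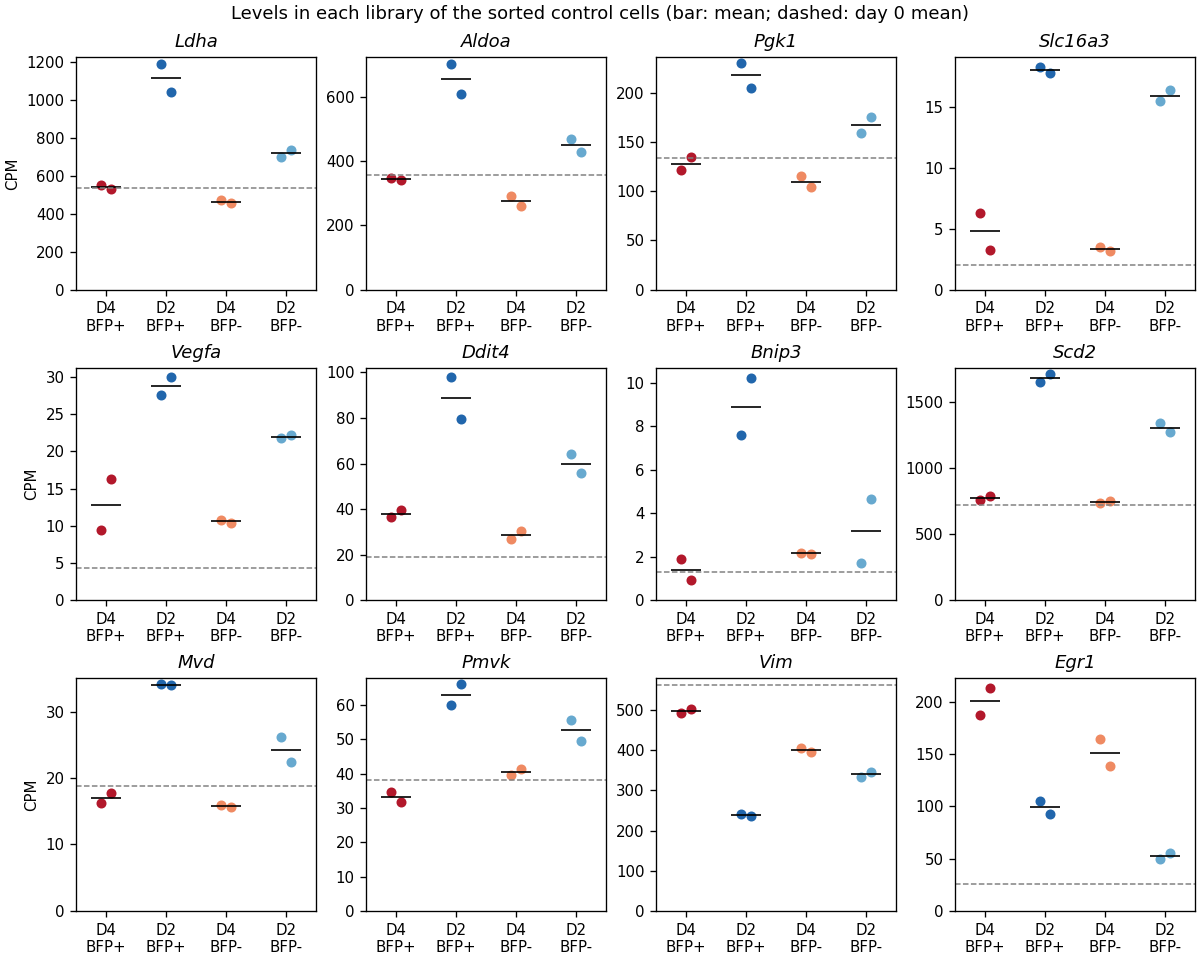
Levels of 12 genes in CPM (vertical axes, from 0) in each library of the sorted control cells, with D4 left of D2 for BFP positive and then BFP negative cells. Points are libraries, short bars are means of 2 and dashed lines are day 0 means. Ldha, Aldoa, Scd2 and Mvd were lower in both D4 libraries than in both D2 libraries and near the dashed line, while Vim and Egr1 were higher at D4.

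Sterol synthesis genes had the lowest median of all lists, and fatty acid synthesis genes were lower as well. Of 25 sterol genes tested, 19 fell, 0 rose and 6 did not pass (median -0.61). Mvd, which makes isopentenyl pyrophosphate, had 16.3 and 17.7 CPM at D4 and 34.1 CPM in both libraries at D2 (-1.01 ± 0.20, edgeR adjusted p = 0.000184). Pmvk, the phosphomevalonate kinase before it, had 34.8 and 31.7 CPM at D4 and 59.9 and 66.1 CPM at D2 (-0.89 ± 0.15, edgeR adjusted p = 9.73e-06). Fdps, the farnesyl pyrophosphate synthase after it, had 13.5 and 10.3 CPM at D4 and 22.4 and 23.9 CPM at D2 (-0.91 ± 0.23). The Fdps call was lost without D4 replicate 2 or D2 replicate 1 and by DESeq2 (adjusted p = 0.0696, 0.0723 and 0.101), and its reads are uncertain because the predicted gene Gm43738 overlaps it. Without D2 replicate 1 the number of sterol genes called was 12.

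Of 14 fatty acid genes tested, 6 fell, 0 rose and 8 did not pass (median -0.32). Scd2, a desaturase that makes monounsaturated fatty acids, lies at chr19:44293676-44306864 on the plus strand and had the lowest p of all genes tested. Scd2 had 761 and 788 CPM at D4 and 1650 and 1708 CPM at D2 (-1.12 ± 0.08, edgeR adjusted p = 2.18e-18), with a day 0 mean of 722 CPM. A microRNA gene overlaps it, and no source used here states whether counting used strand. Elovl6, which lengthens saturated fatty acids, had 58.3 and 64.8 CPM at D4 and 106 and 125 CPM at D2 (-0.89 ± 0.12, edgeR adjusted p = 1.03e-07). The days did not overlap for either gene.

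Of the 13 sterol genes called lower that had a promoter in the table, 1 held the sterol element TCACNCCAC on either strand (7.69%), against 113 of 8306 (1.36%) of all tested genes. Among tested sterol genes with a promoter, called or not, it was in 1 of 17 (5.88%). Glycolysis genes held it in 1 of 15 called lower (6.67%) and in 2 of 20 tested (10%). The sterol share rests on 1 gene and does not show that the element is more common in this list. That gene was Hmgcs1, the cytosolic HMG-CoA synthase at the entry to the pathway, named here because of the match. Its window is chr13:119690101-119690400 on the plus strand, with the element in capitals.
Hmgcs1: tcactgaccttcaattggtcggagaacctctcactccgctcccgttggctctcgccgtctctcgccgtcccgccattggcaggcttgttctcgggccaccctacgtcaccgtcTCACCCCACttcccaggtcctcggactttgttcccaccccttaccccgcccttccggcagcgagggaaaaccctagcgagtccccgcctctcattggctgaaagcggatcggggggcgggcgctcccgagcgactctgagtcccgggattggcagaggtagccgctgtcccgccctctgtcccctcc
Hmgcs1 measured 47.0 and 50.4 CPM at D4 and 64.7 and 71.6 CPM at D2 (-0.47 ± 0.14, edgeR adjusted p = 0.0144).

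Genes of the ATF4 amino acid response were lower, and this count depended on the libraries used. Of 21 members tested, 14 fell, 0 rose and 7 did not pass (median -0.35). Trib3, a pseudokinase induced by stress, had 14.7 and 13.1 CPM at D4 and 51.6 and 26.6 CPM at D2 (-1.59 ± 0.22, edgeR adjusted p = 2.36e-07). The replicates at D2 stood far apart, and without D2 replicate 1 the call was lost (-0.93, adjusted p = 0.0807). Chac1, which degrades glutathione, had 3.13 and 4.66 CPM at D4 and 11.02 and 6.81 CPM at D2 (-1.34 ± 0.42, edgeR adjusted p = 0.0259). It was not called by DESeq2 (adjusted p = 0.377) or without D4 replicate 1, D4 replicate 2 or D2 replicate 1 (adjusted p = 0.288, 0.0591 and 0.571). The number of members called was 2 without D2 replicate 1, 7 without D4 replicate 1 and 9 without D4 replicate 2, by DESeq2 and with thinned libraries.

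**Figure D2:**
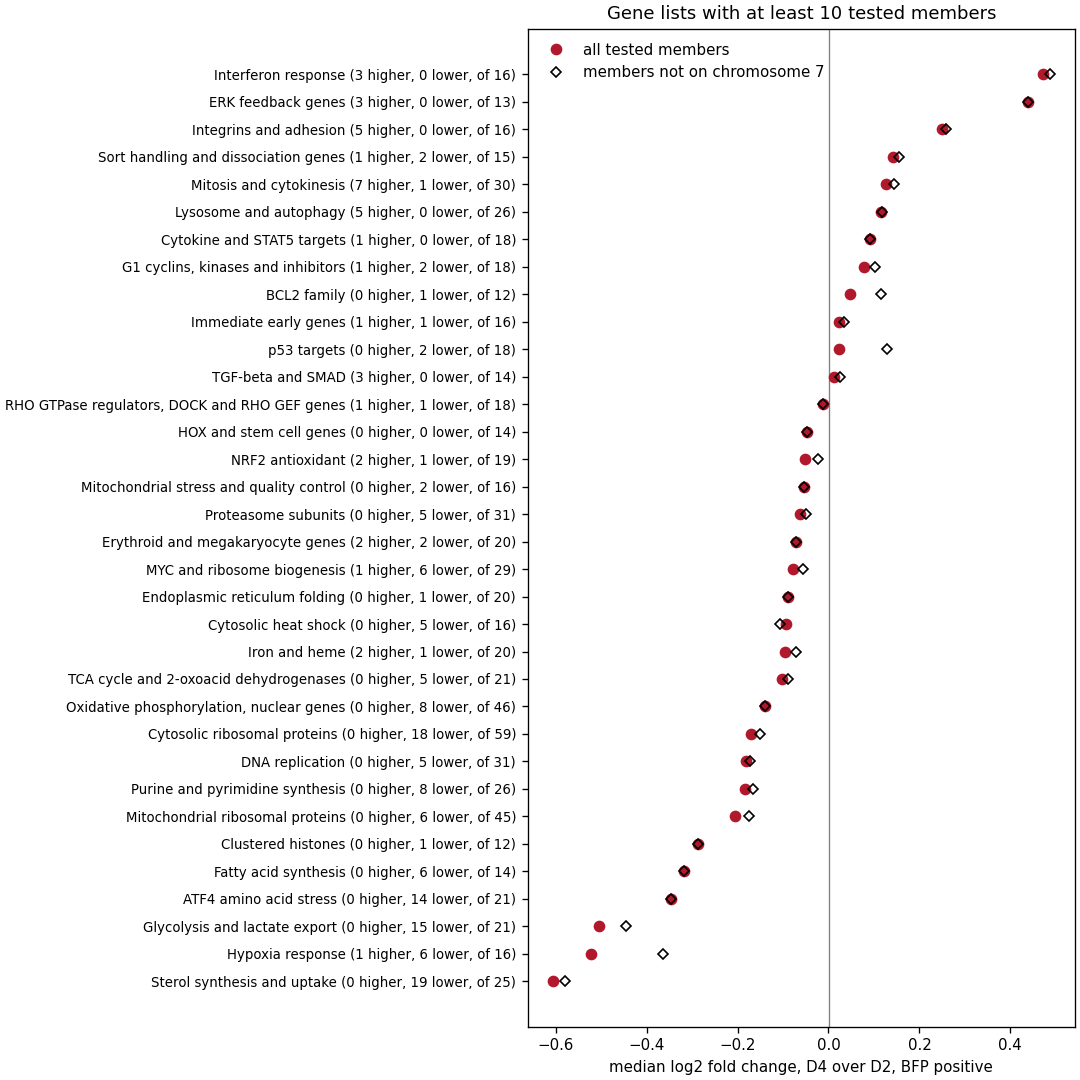
Median log2 fold change, D4 over D2 in BFP positive cells (horizontal axis), of each gene list with at least 10 tested members, with all members (filled circles) and with members outside chromosome 7 (open diamonds). Numbers beside each name are members called higher and lower of those tested, and the lowest medians were those of sterol synthesis (-0.61), hypoxia response (-0.52) and glycolysis (-0.51).

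Genes of chromosome 7 made up a large share of those that fell. This chromosome held 767 of the genes tested (7.11%) and 204 of the 652 called lower (31.3%). On it 26.6% of tested genes were called lower, against 4.47% of the 10024 on all other chromosomes. Only 7 chromosome 7 genes were called higher. The median log2 fold change was -0.28 on chromosome 7 and 0.02 elsewhere, and 603 of the 767 genes (78.6%) had a change below 0. Chromosome 15 had the next highest share of lower genes among the nuclear chromosomes, 14.2% of 438, but a median of -0.07, and 33 of its genes were called higher.

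**Figure D3:**
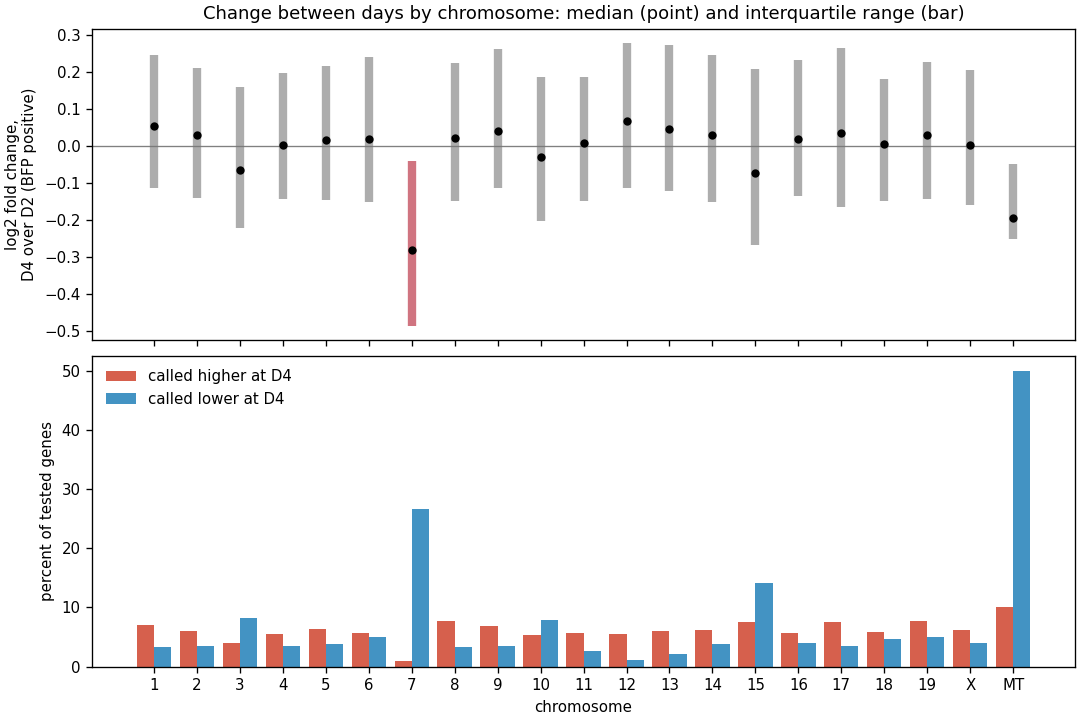
Top, log2 fold change D4 over D2 in BFP positive cells by chromosome, with the median as a point and the interquartile range as a bar; bottom, the percentage of tested genes called higher and called lower. Chromosome 7 stands below the others with a median of -0.28 and 26.6% of genes called lower, while the bars of the mitochondrial chromosome (MT) rest on 10 genes.

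The shift on chromosome 7 covered most of its length. Among the 50 tested genes that start in the first 10 Mb, 2 were called lower and 4 higher, and their median was -0.03. Among the 717 genes beyond the 10 Mb mark, 202 were called lower and 3 higher, with a median of -0.29, a ratio of 0.818. Of 193 windows of 10 Mb with at least 20 tested genes in the genome, 11 had a median under -0.2, and 9 of these were among the 12 such windows of chromosome 7. No window had a median above 0.2. The 10 Mb mark and the windows were set after the data were seen, so they describe the pattern and do not test it. Without D2 replicate 1 the number of chromosome 7 genes called lower was 68 (34.3% of all lower calls), and it was 118 and 123 without D4 replicates 1 and 2. With DESeq2 it was 97 (33.6%). The median stayed between -0.31 and -0.26 whichever of the 4 libraries was left out.

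D2 BFP positive libraries were the ones that stood apart. Relative to the day 0 mean, the median chromosome 7 gene was at 0.05 and 0.03 on the log2 scale in D4 BFP positive libraries and at 0.34 and 0.29 in D2 BFP positive libraries, which is 1.26- and 1.22-fold. It was at 0.01 and -0.05 in D4 BFP negative libraries and 0.06 and 0.04 in D2 BFP negative libraries. The 4 libraries with hairpins against Ogdh, all BFP positive at D4, lay between -0.09 and 0.03.

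**Figure D4:**
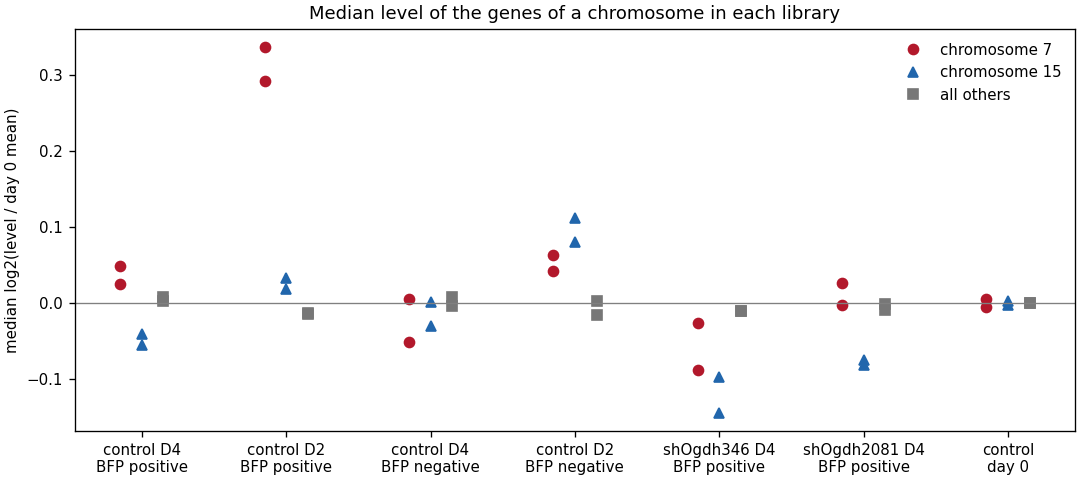
Median log2 level over the day 0 mean (vertical axis) of the tested genes of chromosome 7 (circles), chromosome 15 (triangles) and all other chromosomes (squares), with 1 point for each library. The D2 BFP positive libraries are at 0.34 and 0.29 for chromosome 7, and every other library lies between -0.09 and 0.06 for it.

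Chromosome 7 held some or most of the lower members of several lists. Of 59 cytosolic ribosomal protein genes tested, 18 fell, 0 rose and 41 did not pass (median -0.17). These were 9 of the 11 on chromosome 7 and 9 of the 48 elsewhere. The other two on chromosome 7, Rps9 and Rpl28, which lie within the first 10 Mb and are named for that reason, were at -0.18 and -0.11 and did not pass (edgeR adjusted p = 0.0949 and 0.376). Rpl18, of the large subunit, had 387 and 356 CPM at D4 and 621 and 517 CPM at D2 (-0.62 ± 0.08). Rps16, of the small subunit, had 309 and 269.5 CPM at D4 and 481 and 415 CPM at D2 (-0.64 ± 0.09). These families have many pseudogenes, so the place of their reads is uncertain. The ribosomal count was 8 without D4 replicate 2 or D2 replicate 1 and 34 without D2 replicate 2.

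Of 31 proteasome subunit genes, 5 fell, 0 rose and 26 did not pass (median -0.06), and these 5 were all 4 on chromosome 7 and 1 of 27 elsewhere. Psmd8, a subunit of the proteasome lid, had 113 and 120 CPM at D4 and 185 and 154 CPM at D2 (-0.56 ± 0.11), and was not called without D2 replicate 1 (adjusted p = 0.0883). Of 45 mitochondrial ribosomal protein genes, 6 fell and 39 did not pass (median -0.20), with 3 of 4 on chromosome 7 and 3 of 41 elsewhere. Nuclear oxidative phosphorylation had 46 genes tested, of which 8 fell, 1 of them on chromosome 7, and 38 did not pass (median -0.14). Nucleotide synthesis, of purines and pyrimidines, had 26, of which 8 fell, 2 of them there, and 18 did not pass (median -0.18). Without D2 replicate 1 none of these 4 lists had a called lower member, and the numbers without D2 replicate 2 were 7, 9, 13 and 11. With chromosome 7 genes left out of the fit, an alternative chosen after seeing the data, 1052 genes were called, 556 higher and 496 lower, of which 1004 were also called with them.

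Genes of DNA replication and of the heat shock response were lower in small numbers. The replication list had 31 genes tested, of which 5 fell and 26 did not pass (median -0.18). Mcm3, part of the replicative helicase, had 492 and 500.3 CPM at D4 and 653 and 649 CPM at D2 (-0.39 ± 0.08, edgeR adjusted p = 0.000165). Of 16 cytosolic heat shock genes, 5 fell and 11 did not pass (median -0.09). Hsph1, a large chaperone that acts with HSP70, had 286 and 269 CPM at D4 and 387 and 419.8 CPM at D2 (-0.53 ± 0.08, edgeR adjusted p = 4.15e-06). Myc, a transcription factor that drives growth and ribosome synthesis, had 278 and 279 CPM at D4 and 348 and 357 CPM at D2 (-0.34 ± 0.09, edgeR adjusted p = 0.00395). After thinning of the libraries to equal depth Myc was at -0.26 and no longer called (adjusted p = 0.0627). Its list, which also holds genes that build ribosomes, had 29 tested, of which 6 fell, 1 rose and 22 did not pass (median -0.08). These counts fell to 3 DNA replication genes without either D4 library, to 2 heat shock genes without D2 replicate 1 and to 2 genes of the MYC list without D4 replicate 1.

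The mitochondrial lists also had members lower and none higher. Of the tricarboxylic acid cycle and the dehydrogenases of 2-oxo acids, 21 genes were tested, 5 fell and 16 did not pass (median -0.10), and DESeq2, thinning and leaving out D2 replicate 1 each left 1 called. Idh1, the cytosolic isocitrate dehydrogenase, had 35.4 and 41.0 CPM at D4 and 57.2 and 56.6 CPM at D2 (-0.59 ± 0.15), and lost its call by DESeq2, with thinned libraries and without D4 replicate 1 or D2 replicate 1 (adjusted p = 0.0676, 0.102, 0.129 and 0.102). Of the 10 tested genes of the mitochondrial chromosome, 5 fell and 1 rose. The list of its transcripts held 7 tested genes, of which 3 fell and 4 did not pass (median -0.16), and none was called by DESeq2. The highest of them, mt-Co1, a subunit of cytochrome c oxidase, had 8809 and 8758 CPM at D4 and 9929 and 11092 CPM at D2 (-0.26 ± 0.08, edgeR adjusted p = 0.0151). It was not called without D4 replicate 1, D4 replicate 2 or D2 replicate 2 (adjusted p = 0.0896, 0.0913 and 0.112).

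In the p53 list, 2 of 18 genes fell and 16 did not pass (median 0.02), in cells whose Trp53 is mutant. Sesn2, a sensor of leucine that is also induced by ATF4, had 38.2 and 35.4 CPM at D4 and 63.3 and 56.6 CPM at D2 (-0.71 ± 0.16, edgeR adjusted p = 0.00079), and lost its call without D2 replicate 1 (adjusted p = 0.0996). Bax, an effector of cell death on chromosome 7, had 33.5 and 33.1 CPM at D4 and 47.5 and 46.3 CPM at D2 (-0.50 ± 0.16, edgeR adjusted p = 0.0274). It was the only one of 12 BCL2 family genes that was called, and the call was lost by DESeq2 (adjusted p = 0.196) and without D4 replicate 1, D4 replicate 2 or D2 replicate 1 (adjusted p = 0.127, 0.101 and 0.26). Of 12 clustered histone genes 1 fell and 11 did not pass (median -0.29), and of 18 genes of G1 cyclins and kinases 1 rose and 2 fell (median 0.08). Over all genes tested 5.88% rose and 6.04% fell, and counts this small are not read as a change of these lists.

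Among the genes that were higher at D4, Vim had the lowest p. It encodes vimentin, an intermediate filament protein of mesenchymal and blood cells, and lies at chr2:13573927-13582826 on the plus strand. Vim had 492 and 502 CPM at D4 and 241 and 236 CPM at D2 (1.06 ± 0.08, edgeR adjusted p = 3.62e-16), with a day 0 mean of 562 CPM. Neat1, the long noncoding RNA that builds paraspeckles in the nucleus, had 122 and 110 CPM at D4 against 39.9 and 46.3 CPM at D2 (1.47 ± 0.13, edgeR adjusted p = 3.52e-14). Short genes overlap it on the same strand. Hap1, a huntingtin-associated transport protein, had 96.2 and 101 CPM at D4 and 27.9 and 44.3 CPM at D2 (1.54 ± 0.15, edgeR adjusted p = 8.15e-12). The days did not overlap for these 3 genes, and each kept its call in every alternative run.

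Cela1, a serine protease of the elastase family, had 249.7 and 242 CPM at D4 and 130.5 and 115 CPM at D2 (0.99 ± 0.09, edgeR adjusted p = 2.72e-12). Leng8, 1 of the 7 genes of chromosome 7 that rose, had 474 and 531 CPM at D4 and 223 and 269.9 CPM at D2 (1.05 ± 0.09). Egr1, an immediate early transcription factor of growth factor signalling, had 188 and 213 CPM at D4 and 105 and 92.7 CPM at D2 (0.99 ± 0.11, edgeR adjusted p = 6.39e-10), against a day 0 mean of 25.5 CPM. Both days of sorted cells thus lay above the untreated cells for Egr1. Among 16 immediate early genes tested, only Egr1 rose, only Junb fell and 14 did not pass (median 0.02). The Junb call was lost by DESeq2. Xist, the noncoding RNA that silences an X chromosome, had 1599 and 1686 CPM at D4 and 934 and 1131 CPM at D2 (0.68 ± 0.09). Its reads cannot be told from those of its antisense gene Tsix without strand information.

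Some lists had members higher and none lower. Of 16 interferon response genes, 3 rose and 13 did not pass (median 0.47). Psmb8, a subunit of the immunoproteasome, had 32.6 and 34.5 CPM at D4 and 17.9 and 18.4 CPM at D2 (0.88 ± 0.20, edgeR adjusted p = 0.000945). Of 16 integrin and adhesion genes, 5 rose and 11 did not pass (median 0.25), among them Itga5, the fibronectin receptor chain, with 238 and 244 CPM at D4 and 159 and 183 CPM at D2 (0.52 ± 0.10). Without D2 replicate 1 neither list had a called member, and Psmb8 and Itga5 were at 0.85 and 0.39 (adjusted p = 0.0803 and 0.0609). Of 13 ERK feedback genes, Spry4, Etv5 and Nf1 rose and 10 did not pass (median 0.44). Nf1 is a target of a hairpin that all cells carry, and measured 56.4 CPM in both libraries at D4 against 39.2 and 45.7 CPM at D2 (0.44 ± 0.15, edgeR adjusted p = 0.0376). The Nf1 call was lost in 8 of 14 alternatives. These included DESeq2 (0.42, adjusted p = 0.211) and thinned libraries (0.33, edgeR adjusted p = 0.288). Spry4 was also not called with thinned libraries (0.48, edgeR adjusted p = 0.16). Without D4 replicate 1 none of the 3 was called (adjusted p = 0.0505 for Spry4, 0.0565 for Etv5 and 0.183 for Nf1), and Nf1 was also not called without D4 replicate 2 or D2 replicate 1, Spry4 without D2 replicate 1 and Etv5 without D2 replicate 2.

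Of 26 lysosome and autophagy genes, 5 rose and 21 did not pass (median 0.11). Gaa, the lysosomal enzyme that breaks down glycogen, had 87.4 and 82.1 CPM at D4 and 53.7 and 49.7 CPM at D2 (0.70 ± 0.13, edgeR adjusted p = 0.0001). Of 30 mitosis and cytokinesis genes, 7 rose, 1 fell and 22 did not pass (median 0.13). Ube2c, the ubiquitin-conjugating enzyme of the anaphase-promoting complex, had 201 and 202 CPM at D4 and 147 and 146 CPM at D2 (0.46 ± 0.09, edgeR adjusted p = 0.000313). Without D2 replicate 1, 3 lysosome and 3 mitosis genes were called higher, and lysosome genes numbered 2 without D4 replicate 2 or D2 replicate 2. Slc40a1, the iron exporter ferroportin, had 275 and 295 CPM at D4 and 197 and 192 CPM at D2 (0.54 ± 0.09, edgeR adjusted p = 8.98e-06).

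Of 20 heme and iron genes, 2 rose, 1 fell and 17 did not pass, shares near those over all genes tested (5.88% higher and 6.04% lower). Cpox and Ppox encode consecutive enzymes late in heme synthesis. Cpox had 396 CPM in both libraries at D4 and 549.8 and 538 CPM at D2 (-0.46 ± 0.08, edgeR adjusted p = 1.96e-05), whereas Ppox had 217 and 209.8 CPM at D4 and 143.2 and 155.4 CPM at D2 (0.53 ± 0.10, edgeR adjusted p = 5.3e-05). The days did not overlap for either gene. Of 5 copines tested, Cpne7 rose beside Cpne5, with 105 and 117 CPM at D4 and 68.9 and 68.1 CPM at D2 (0.69 ± 0.12, edgeR adjusted p = 1.35e-05). Tnfaip3, an inhibitor of NF-kB signalling, had 223 and 212 CPM at D4 and 135.3 and 135.6 CPM at D2 (0.68 ± 0.09, edgeR adjusted p = 1.38e-07). The list of NF-kB and inflammatory cytokine genes had 9 tested, with 2 higher, Tnfaip3 among them, and 1 lower. Nqo1, a quinone reductase and target of NRF2, had 134 and 133 CPM at D4 and 97.1 and 70.9 CPM at D2 (0.62 ± 0.11, edgeR adjusted p = 6.48e-05), in a list with 2 of 19 higher and 1 lower. Among 6 targets of YAP and TEAD only Ptpn14, a phosphatase that restrains YAP, was called (1.09 ± 0.35, edgeR adjusted p = 0.0292), and it was not called by DESeq2 (adjusted p = 0.159) or with any 1 of the 4 libraries left out (adjusted p = 0.0648 to 0.316).

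The genes with the largest fitted changes had few reads. Igf2bp2, an RNA-binding protein of the IGF2 mRNA-binding family, had 11 counts in both libraries at D4 and 0 counts at D2, which is at least 6.01-fold higher at D4 with a limit of 3 counts over the group (counting error only), and its call was lost without D2 replicate 1 (adjusted p = 0.0803). Wisp3, a secreted matrix protein, had 8 and 1 counts at D4 and 0 at D2, at least 2.46-fold higher by the same limit, and its call was lost without D4 replicate 1, D2 replicate 1 or D2 replicate 2 and by DESeq2 (adjusted p = 0.523, 0.395, 0.117 and 0.184). Slfn9, a gene of the Schlafen family, had 18 and 20 counts at D4 and 1 and 0 at D2, a ratio of 31.1 with a 95% counting interval of 5.26 to 1262. H2afy, which encodes the histone variant macroH2A1, had 29 and 20 counts at D4 and 4 and 1 at D2, a ratio of 8.03 (3.22 to 25.8).

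Among the lowest, Slitrk5, a neuronal transmembrane protein, had 3 counts in both libraries at D4 and 29 and 16 at D2, a ratio of 0.109 (0.0381 to 0.257). Itm2a, a membrane protein, had 3 and 6 counts at D4 and 41 and 15 at D2, a ratio of 0.132 (0.0573 to 0.268). Both genes and also Slfn9 and H2afy kept their calls in every alternative run. Of the 24 genes with the largest changes, 12 in each direction, the fewest counts over the 4 libraries were 9, for Wisp3.

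The same days were compared in uninduced cells to see whether the change was shared. In BFP negative cells 738 genes were called between D4 and D2 (6.84% of those tested), 328 higher (3.04%) and 410 lower (3.8%). Without D4 BFP negative replicate 2 it was 290 and without D2 BFP negative replicate 2 it was 317. Glycolysis had 13 members lower there (median -0.39), sterol synthesis 16 (median -0.40), hypoxia response 6 (median -0.50) and ATF4 genes 3 (median -0.05). Chromosome 7 had 39 genes lower and 6 higher, with a median of -0.07. Slc16a3 averaged 3.36 CPM at D4 and 15.9 CPM at D2 in BFP negative cells (-2.27), and Pfkl 185 and 309 CPM (-0.76), changes of the same direction as in BFP positive cells.

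A test of the difference itself, the change in BFP positive minus that in BFP negative cells, called 71 genes (0.658%), 45 with a higher (0.417%) and 26 with a lower difference (0.241%). At an unadjusted p under 0.05 there were 1057 (9.8%). Of the 26, 10 lie on chromosome 7. Within the lists the only glycolysis gene called was Ldha, with a difference of -0.41, and no member of the cytosolic ribosomal protein list or the proteasome subunit list was called. Without a called difference, the changes of the other members are not shown to differ or to be alike. Without D4 BFP positive replicate 1, D4 BFP positive replicate 2 or D2 BFP positive replicate 1 the number called was 31, 46 or 30.

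Cpne5 and Vim changed more in BFP positive cells. Cpne5 averaged 16.1 CPM at D4 and 22.3 CPM at D2 in BFP negative cells (log2 fold change -0.45), and the difference was 2.55 ± 0.40 (edgeR adjusted p = 3.0e-05). Vim averaged 401 CPM at D4 and 339 CPM at D2 there (0.24), with a difference of 0.82 ± 0.11 (edgeR adjusted p = 2.7e-06). Yap1 and Dock10 were higher at D4 in BFP negative cells, Yap1 with means of 20.8 CPM at D4 and 7.54 CPM at D2 (1.37) and Dock10 with 41.0 and 24.6 CPM (0.74). Their differences were -1.86 ± 0.30 for Yap1 and -1.40 ± 0.21 for Dock10 (edgeR adjusted p = 6.6e-05 and 2.2e-05), and that of Yap1 lost its call with thinned libraries. Scd1, a desaturase like Scd2, fell in BFP positive cells, with 84.3 and 86.7 CPM at D4 and 142.9 and 130.2 CPM at D2 (-0.69). In BFP negative cells Scd1 rose, with means of 90.2 CPM at D4 and 72.2 CPM at D2 (0.34), and the difference was -1.03 ± 0.15 (edgeR adjusted p = 1.1e-05).

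**Figure D5:**
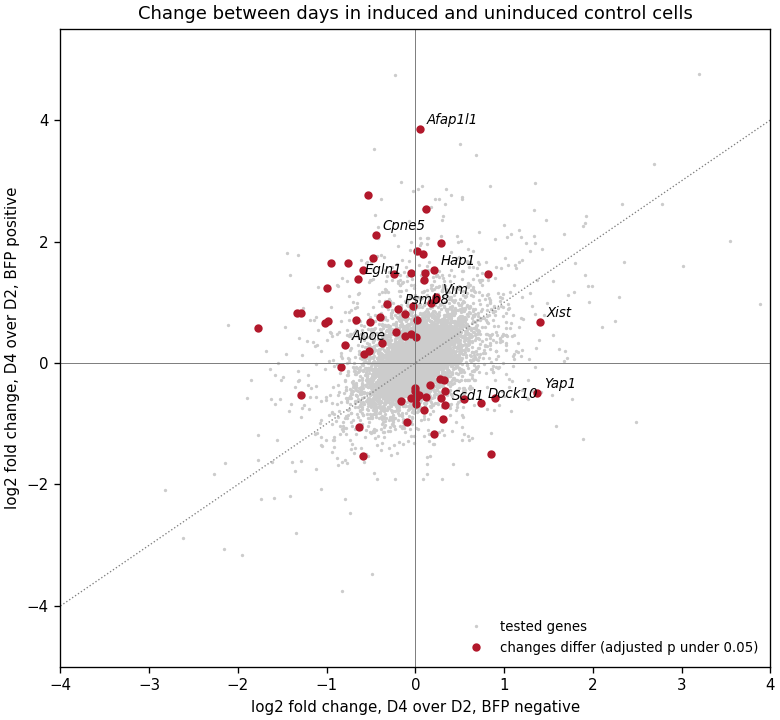
Log2 fold change D4 over D2 in BFP positive cells (vertical axis) against that in BFP negative cells (horizontal axis) for the genes tested, with the 71 genes whose changes differ in color and 11 of them named; 2 genes lie outside the axes and the dotted line marks equal changes. Cpne5 and Vim sit above the line, and Yap1, Dock10 and Scd1 below it.

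The label of a myeloid leukemia was checked against marker lists of blood cells. Granule and monocyte genes were at or near 0, whereas erythroid and megakaryocyte, mast cell and stem cell lists were expressed. List sums and the levels of Kit and Myb are given here in CPM of all counts of a library. Of the neutrophil granule genes 16 had 0 counts in all 4 BFP positive libraries, among them Mpo, Elane, S100a8 and S100a9, and their list summed to 0.627 and 0.465 CPM at D4 and 0.665 and 1.33 CPM at D2. Monocyte genes, with Itgam, Lyz2 and Adgre1 at 0, summed to 9.40 and 12.1 CPM at D4 and 8.31 and 12.7 CPM at D2. Lymphoid lists were low, with 8 of 10 B cell genes and 11 of 18 T and NK cell genes at 0. Of 14 dendritic cell genes 10 were at 0, and the list summed to 238 and 259 CPM at D4 and 233 and 249 CPM at D2. Of 27 HOX and stem cell genes 12 were at 0, among them Cd34, Flt3 and Hoxa9, but the list summed to 2389.8 and 2410.3 CPM at D4 and 2277.1 and 2389.9 CPM at D2. Kit, the receptor of SCF, had 483 and 498 CPM at D4 and 464 and 497 CPM at D2, and Myb, a transcription factor of blood progenitors, had 694 and 683 CPM at D4 and 597 and 681 CPM at D2. Erythroid and megakaryocyte genes summed to 4196 and 4222 CPM at D4 and 4055 and 4175 CPM at D2, with 2 higher, 2 lower and 16 not passing. Over all genes tested, 5.88% were higher and 6.04% lower. Mast cell, basophil and eosinophil genes summed to 1698 and 1687 CPM at D4 and 1554 and 1541 CPM at D2, and Ms4a2, the beta chain of the IgE receptor, was the only one of 8 tested that rose (0.72 ± 0.16, edgeR adjusted p = 0.000765). Without D2 replicate 1 it was not called (0.48, adjusted p = 0.247). A count of 0 allows up to 3 counts, which is 0.94 and 1.40 CPM at D4 and 0.997 and 2.00 CPM at D2.

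Most genes induced by sorting and dissociation did not pass, and 3 of 5 genes of other tissues rose. The sorting genes summed to 2687 and 2690 CPM at D4 and 3276 and 3063 CPM at D2, with 1 higher, 2 lower and 12 not passing, and with a median log2 fold change of 0.14 although the sum was lower at D4. Fibroblast, endothelial and epithelial genes summed to 50.8 and 53.1 CPM at D4 and 28.6 and 27.3 CPM at D2. Of 5 tested, Col1a2, Dcn and Krt18 rose, by 0.74, 0.96 and 2.11, none called by DESeq2 (adjusted p = 0.207, 0.224 and 0.146) and none without D4 replicate 2 or D2 replicate 1. Cdh1, Epcam, Pdgfra, Lum and Krt8 were at 0. The part of these lists in the results above was not tested.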

How the data were processed

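Polyadenylated RNA of 14 mouse libraries was sequenced as single-end reads of 76 bases, per the labels' protocols. The authors deposited whole-number counts per gene, not normalized, and a transcript length per gene (another unit, in bases), used only in a length offset. The submitters' processing notes name mm10/GRCm38 with featureCounts 1.6.3, STAR 2.6.1a, Trimmomatic 0.36 and FastQC 0.11.5, whereas the labels' protocols name HTSeq, RPKM and a human build. Of 53274 genes also in GENCODE M21, 51335 (96.36%) had the same coordinates, so GRCm38 is used. No source used here states the strand setting or how reads with several places were treated.

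Of 53465 genes, filterByExpr kept 10791. TMM factors ran from 0.968 to 1.013 and library totals from 913482 to 10271698. The quasi-likelihood test of edgeR 4.0.16 (R 4.3.3), two-sided, fitted 1 model with 7 groups of 2 (7 residual degrees of freedom). An exact permutation test of 2 against 2 cannot go below 0.333. Adjusted p-values are from edgeR unless DESeq2 (1.42.0) is named. Chi-square over degrees of freedom was 1.16 to 2.71 between the replicates of a group, more than sampling noise alone. On simulated counts of 10791 genes the comparison of D4 with D2 in BFP positive cells found 14% of 1.25-fold, 62% of 1.5-fold, 92% of 2-fold and 100% of 4-fold changes, and 1.47% of its calls were false. For the difference between BFP positive and negative cells these shares were 4%, 46%, 76% and 100%, and 3.42% of calls were false. In each simulation the changes, 50 genes for each fold, were placed only in genes above a minimum mean count in the BFP positive libraries. The other genes were simulated without a change between days, and the spread was taken from the same fit. These shares therefore do not cover genes with few reads, such as Igf2bp2, Wisp3 and Bnip3.

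The comparison, the gene lists and the markers were chosen with earlier results of these data known. Genes were named by rule: the 12 called with the largest changes, the 5 with the lowest p and the 3 with the highest levels in each direction, up to 3 called members of each list in each direction, the markers Yap1, Dock10 and Cpne5, and the 5 with the lowest p in each direction of the difference. Not all genes so named are printed. Exceptions are marked in the text. Alternatives were DESeq2, its size factors, no filter or a filter of 5 CPM in 2 samples, fewer samples in the fit, a replicate block, thinning to equal depth, a length offset, leaving out each library and, chosen after seeing the data, leaving out chromosome 7 genes. Promoters and motifs were read from the RefSeq table. Counting intervals are exact at 95% and, like limits at 0, cover counting error only.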

Additional observations from a re-analysis of the deposited data

Results flagged for a closer look

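The change between D4 and D2 differed between BFP positive and BFP negative cells, by the interaction test of edgeR (adjusted p under 0.05), in 71 genes. Each value below is the log2 fold change in BFP positive minus that in BFP negative cells, and what flagged each gene is this difference. Higher differences were found for Afap1l1 (3.81), Cpne5 (2.55), Egln1 (2.03), Hap1 (1.33), Apoe (1.09), Psmb8 (1.08), Vim (0.82), Cela1 (0.81), Gaa (0.68) and Neat1 (0.66). Apoe encodes a lipid carrier and was lower at D4 in BFP negative cells, with means of 78.1 CPM at D4 and 133 CPM at D2. In BFP positive cells Apoe had 66.1 and 62.5 CPM at D4 and 51.0 and 54.5 CPM at D2 and did not pass (0.30, edgeR adjusted p = 0.163).

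Lower differences were found for Yap1 (-1.86), Dock10 (-1.40), Scd1 (-1.03), Hist1h2bc (-0.86), Xist (-0.73), Sae1 (-0.69) and Ldha (-0.41). Sae1, a subunit of the SUMO-activating enzyme on chromosome 7, had 128.4 and 124 CPM at D4 and 210.4 and 191 CPM at D2 in BFP positive cells, against means of 140.4 CPM at D4 and 139 CPM at D2 in BFP negative cells. Hist1h2bc belongs to a family of near-identical histone genes, so its reads are uncertain. In every alternative run the differences of Vim, Hap1, Cela1, Cpne5, Dock10 and Scd1 were called. Those of Gaa, Ldha, Neat1, Psmb8, Hist1h2bc, Afap1l1 and Egln1 were lost in 10, 9, 8, 6, 4, 3 and 2 alternatives, DESeq2 among them for each, and that of Xist by DESeq2. Those of Apoe and Yap1 were lost with thinned libraries and that of Sae1 without D2 BFP positive replicate 1. Afap1l1 had 21 and 17 counts at D4 and 2 and 0 counts at D2 in BFP positive cells, and its difference was 7.59 without D2 BFP positive replicate 1 (adjusted p = 0.0705).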

How the results depend on the processing

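DESeq2 called 540 genes between D4 and D2 in BFP positive cells (251 higher, 289 lower), 60 higher and 81 lower (1.4e2 in all) in BFP negative cells and 22 for the difference, against 1286, 738 and 71 by edgeR, and 97 chromosome 7 genes lower against 204. With libraries thinned to equal depth the counts of genes were 832, 242 and 32, so depth limits how many are called. Leaving out each library in turn gave 367 to 1167 genes in BFP positive cells, 290 to 776 in BFP negative cells, 30 to 91 for the difference and 68 to 190 chromosome 7 genes lower. A group left with 1 library was assumed to vary like the others. The other alternatives kept these counts within 1.5 times. Of the values for named genes, 58 kept their side of the threshold in every alternative run, 98 lost a call in at least 1, and 0 changed direction. Replicate numbers were not taken to pair the samples, since correlations of deviations ran from -0.05 to 0.15 over the control groups (0.04 for D4 with D2 BFP positive, 0.15 for D4 with D2 BFP negative and 0.12 for D2 BFP positive with D4 BFP negative libraries), and with a replicate block 1366, 855 and 83 genes were called. With chromosome 7 genes left out 1052 and 60 genes were called for BFP positive cells and the difference.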

Other observations

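Transcript length moved weakly with the change between days in BFP positive cells. In 4 groups of genes of about equal size, from the shortest to the longest, the median log2 fold change was -0.05, -0.01, 0.02 and 0.03, and 107, 152, 179 and 196 genes were higher at D4. In BFP negative cells the medians were -0.07, -0.02, 0.02 and 0.04.

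Chromosome 15 had more genes lower than higher in BFP positive and in BFP negative cells, but at its far end the medians went opposite ways. Its genes had a median of -0.07 in BFP positive cells, with 62 lower and 33 higher, and of -0.12 in BFP negative cells, with 54 lower and 11 higher. In BFP positive cells the windows from 90 to 100 Mb and from 100 to 110 Mb each had a median of 0.11, with 8 genes higher and 1 lower. The other windows had medians below 0, except that from 60 to 70 Mb (0.01). In BFP negative cells the windows from 90 to 100 Mb and from 100 to 110 Mb had medians of -0.12 and -0.08. All other windows of the chromosome had medians below 0 in these cells as well. Rps12, a ribosomal protein gene of the small subunit, is named for its level and not as an example of chromosome 15. It was 1 of the 3 genes with the highest levels among those that fell. Rps12 had 2417 and 2270 CPM at D4 and 3877 and 3247 CPM at D2 (-0.61 ± 0.08, edgeR adjusted p = 1.24e-08). The small nucleolar RNA genes Snora33 and Snord100 overlap it on the same strand.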
